A study of Mus musculus with 72 samples.

Results

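Arntl, Clock, Npas2, Nfil3 and Rora were followed through the day in the liver of Scp2 KO and WT mice. Every probe annotated to these 5 symbols in the deposited signal table was taken, whatever its values, which gave 8 of 25697 probes. The array named 16593 genes. The Scp2 KO animals lack the whole Scp2 locus, so that both of its products, SCP2 and the longer SCPx, are affected, and they had been backcrossed into C57Bl/6. WT controls were C57Bl/6J mice. All were males aged 10 to 12 weeks, kept in 12 h of light and 12 h of dark, and in both genotypes food was given only at night for 4 days before sacrifice. Livers were taken every 2 h, with ZT0 at lights on and ZT12 at lights off, from 3 mice per time point and genotype, which gave 36 arrays for KO and 36 for WT. Each array carried the RNA of 1 whole liver, in which fewer cells of a type and less RNA per cell cannot be told apart.

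BMAL1, the protein of Arntl, pairs with CLOCK, or with its relative NPAS2, and the pair binds E-boxes to switch on the Per and Cry genes, whose proteins later block it. The same pair drives Nr1d1 and Nr1d2, which encode the REV-ERB repressors. REV-ERB proteins and the ROR activators, of which RORα from Rora is a member, compete for the same DNA element, called the ROR element, and through it act on Arntl, Clock, Npas2 and Nfil3. NFIL3 (E4BP4) is a repressor that binds D-boxes, the sites used by the activators DBP, TEF and HLF. In mouse liver the transcripts that REV-ERB represses are known to be lowest while REV-ERB is abundant in the late light phase.

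The ROR element links these genes, so the promoter windows in the RefSeq table for GRCm38.p6 were searched for it. A window ran from 250 bases before a start site to 50 bases after it. All 5 genes had at least 1 window, 8 in all. The core was searched as TAGGTCA and TGGGTCA, and a variant as TAGGTTA, on both strands. Each match is shown 5′ to 3′ on the strand of the gene, with the 7 matched bases in capitals and 9 bases on either side.
Arntl, variant: gtcggaaagTAGGTTAgtggtgcga
Arntl, core: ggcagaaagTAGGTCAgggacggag
Nfil3, core on the opposite strand: gctcggaacTGACCTActaacacac
The Arntl variant lies at chr7:113207496-113207520 (+), and its first matched base stands at position -6 from the downstream of the 2 annotated Arntl starts. The Arntl core lies at chr7:113207532-113207556 (+), with its first matched base at position 31 from the same start. The Nfil3 core lies at chr13:52981036-52981060 (-), at position -12. No match overlapped another. In the 3 Clock windows, the Npas2 window and the Rora window these letters were not found. Over the 32851 windows of all genes, TAGGTCA was found in 2.61%, TGGGTCA in 3.98% and TAGGTTA in 1.44%. The E-box CACGTG (7.15% of all windows) and the D-boxes TTATGTAA (0.938%) and TTACGTAA (0.119%) were searched in the same way and were not found in a window of the 5 genes. A match is a description of the letters in the window and not evidence of binding.

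The genes lie on separate chromosomes of GRCm38.p6, Npas2 at chr1:39193702-39363240, Clock at chr5:76209868-76305603, Arntl at chr7:113178471-113314126, Rora at chr9:68653404-69388246 and Nfil3 at chr13:52967209-52982878. Arntl, Npas2 and Nfil3 had 1 probe each (ILMN_2707510, ILMN_2668835 and ILMN_2595732). Clock had 3 (ILMN_2610973, ILMN_2600964 and ILMN_2589603) and Rora 2 (ILMN_1243741 and ILMN_2742686). The probe with the highest mean, named first, stands for its gene below unless another is named. The annotation used here gives all probes of a gene the same transcript, so which exon or isoform a probe reads is not given in the sources used here.

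Levels are log2 of the background-corrected, quantile-normalized signal. The median raw signal of an array lay between 95.5 and 114 in KO and between 96.1 and 114 in WT, and no pair of arrays held identical values. Of the 4 Scp2 probes, 3 separated the genotypes on every array. The clearest, ILMN_2705886, averaged 6.0 ± 0.11 in KO and 12.93 ± 0.12 in WT (SD, n = 36 each), whereas ILMN_1221684 still read 10.30 ± 0.32 in KO against 11.76 ± 0.23 in WT. The fourth overlapped between genotypes at the level of the dimmest probes. The hepatocyte markers had a median rank at the 99.95th percentile of all probes. In each genotype the signal columns fell into 3 sets of 12 arrays, 1 array per time point, named 4, 5 and 6 for KO and 6, 9 and 10 for WT. What a set stands for is not given in the sources used here. The paper describes the array harvest as lasting 3 consecutive days, its methods name a 24 h period, and no set is tied to a day.

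A pair of arrays stood apart and touch the results. The KO set 6 array at ZT6 had the lowest median rank correlation with all other arrays of both genotypes, 0.827. It read 6.59 for Dbp, the D-box activator that peaks near dusk, against 10.26 and 9.37 in KO sets 4 and 5. The WT set 6 array at ZT12 had a median Pearson correlation of 0.965 with all other arrays of both genotypes. The neutrophil genes S100a8 and S100a9 read 11.79 and 10.02 there, against medians of 6.18 and 5.92 over all arrays.

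**Figure D1:**
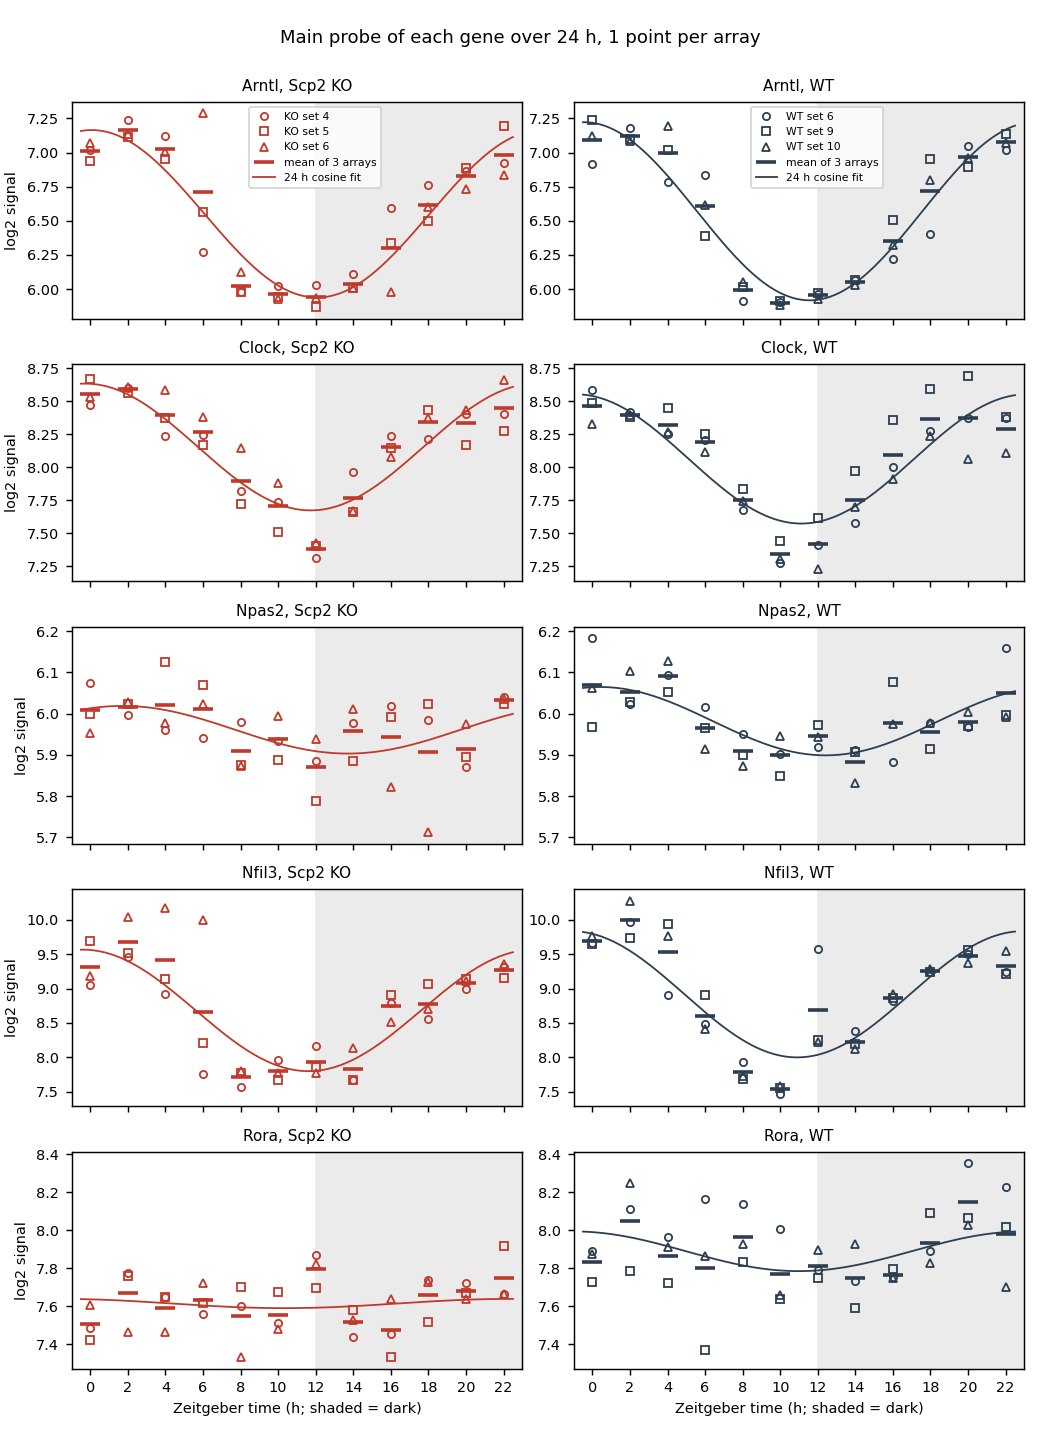
Normalized log2 signal (vertical axis) of the main probe of Arntl, Clock, Npas2, Nfil3 and Rora against Zeitgeber time in hours (horizontal axis), KO and WT, with a point for each of the 3 arrays per time point (its shape marks the set), a dash for their mean, the fitted 24 h cosine as a line and the dark phase shaded. Arntl, Clock and Nfil3 were high around ZT0 to ZT4 and low around ZT8 to ZT12 in both genotypes, while Rora lay lower in KO than in WT at 12 of 12 times.

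Of the 5 genes, Arntl, Clock and Nfil3 cycled over 24 h in both genotypes, with maxima near lights on, and Npas2 passed the rhythm test in WT. Rhythms were tested in each genotype with the F-test of a 24 h cosine and sine, and p-values were adjusted by Benjamini-Hochberg over all 25697 probes, with a threshold of 0.05. By this rule 3 of 5 genes passed in KO, where 11.4% of all probes did, 4 of 5 passed in WT, where 13.4% did, and 3 of 5 passed in both, as did 7.65% of all probes. In no gene did the rhythm differ between KO and WT past the threshold, a call made for 0.109% of all probes. Rora was the 1 gene of the 5 whose daily mean level differed, and it was lower in KO. Over all probes, 12.6% differed in level and 6.46% were lower in KO.

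Arntl encodes the partner that CLOCK and NPAS2 both need. Its 36 KO values had a lowest, median and highest of 5.87, 6.60 and 7.29, and its 36 WT values 5.89, 6.70 and 7.24. The ranges nearly coincided. At its highest time, ZT2, Arntl read 7.11, 7.13 and 7.24 in KO and 7.08, 7.10 and 7.18 in WT. At ZT10 it read 5.93, 5.94 and 6.02 in KO and 5.89, 5.90 and 5.91 in WT, so both genotypes sat near their floor in the late light phase. The KO values lay just above the WT values there, a difference of 0.065 that did not pass the limma test. At ZT20 the KO values all lay just below the WT values. That difference, -0.14, was the largest of Arntl and did not pass (limma adjusted p = 0.911). Of all probe and time pairs 6.3% had KO below in this way, and the share with KO above was not computed. Between the highest and the lowest group mean lay 2.33-fold in KO and 2.33-fold in WT.

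The steepest step of Arntl lay between ZT6 and ZT8, -0.68 in KO and -0.62 in WT on the log2 scale. In KO this place rested on the set 6 array at ZT6, without which the step between ZT4 and ZT6 was -0.60 and that between ZT6 and ZT8 was -0.40. The return was slower, with the gain spread over the intervals between ZT14 and ZT22. A 24 h cosine accounted for 83.0% of the variance in KO and 90.3% in WT (adjusted p = 1.11e-10 in KO and 1.04e-13 in WT, F-test with Benjamini-Hochberg adjustment). The amplitude, the distance between the daily mean and the fitted maximum, was 0.61 (SE 0.048) in KO and 0.65 (SE 0.037) in WT. The acrophase, the time of the fitted maximum, was ZT0.0728 (SE 0.301 h) in KO and ZT23.6 (SE 0.218 h) in WT. Neither the level, with a KO minus WT difference of -0.018 (95% interval -0.10 to 0.066, limma adjusted p = 0.893), nor the rhythm (limma adjusted p = 0.879) differed past the threshold.

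Clock encodes the partner with which BMAL1 binds DNA. Its lowest, median and highest values were 7.31, 8.24 and 8.66 in KO and 7.22, 8.22 and 8.69 in WT. At ZT2 Clock read 8.56, 8.60 and 8.61 in KO and 8.38, 8.40 and 8.42 in WT, so every KO value lay above every WT value there. The difference of 0.19 did not pass (limma adjusted p = 0.850), and how many probes separate with KO above was not computed. The lowest group mean fell at ZT12 in KO, 7.38 ± 0.06, and at ZT10 in WT, 7.34 ± 0.09 (SD, n = 3). At ZT10 itself Clock read 7.51, 7.74 and 7.88 in KO and 7.27, 7.30 and 7.44 in WT. This was the time of its largest difference, 0.37 on the log2 scale, and it did not pass the threshold (limma adjusted p = 0.275). At single time points none of the 5 genes was called, against 0.715% of all tests over the 12 times.

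The amplitude of Clock was 0.48 in KO and 0.49 in WT, and its acrophase ZT23.7 (SE 0.346 h) in KO and ZT23.1 (SE 0.402 h) in WT. Its rhythm passed in both (adjusted p = 2.91e-09 in KO and 5.60e-08 in WT, F-test) and did not differ between them (limma adjusted p = 0.933). The level difference was 0.090 (95% interval -0.0025 to 0.18, limma adjusted p = 0.257). This value depended on the sets included, and ran from 0.034 to 0.16 over the fits without 1 set each. WT set 9 had the highest WT mean (8.20, against 8.03 in set 6 and 7.95 in set 10). Without that set the difference was 0.16 and passed (limma adjusted p = 0.0119). The waveform of Clock was less like a single cosine than that of Arntl, with a narrow trough and a broad crest. A 12 h component passed in WT (amplitude 0.21, adjusted p = 0.00770, F-test) and not in KO (0.15, adjusted p = 0.0875), in a test called for 0.755% of all probes in WT and 0.389% in KO, and no other gene of the 5 passed in either genotype. The WT call was lost under median scaling (adjusted p = 0.277), and the difference between the genotypes in this component was not tested.

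**Figure D2:**
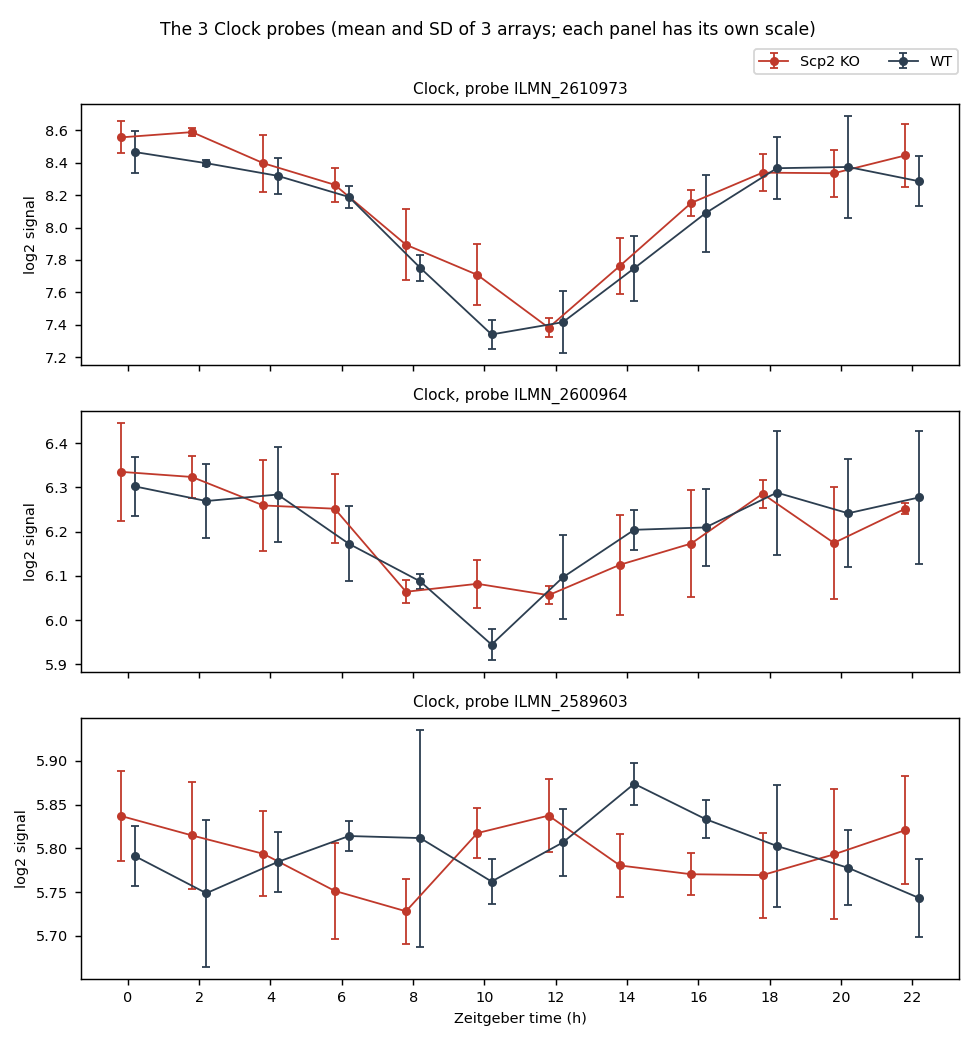
Normalized log2 signal of the 3 Clock probes against Zeitgeber time in hours, KO and WT, as the mean and SD of 3 arrays with a scale of its own for each probe. The probes ILMN_2610973 and ILMN_2600964 were both lowest around ZT10 to ZT12, and ILMN_2589603 stayed between 5.67 and 5.92 on all arrays.

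The 3 Clock probes differed among themselves. ILMN_2600964 had lowest, median and highest values of 5.999, 6.22 and 6.46 in KO and 5.91, 6.20 and 6.41 in WT, and cycled in both genotypes (adjusted p = 3.53e-04 in KO and 8.32e-04 in WT, F-test). Its fitted maximum fell at ZT23.8 in KO and ZT22.3 in WT, with an amplitude of 0.12 in both. Over the 24 group means it correlated with ILMN_2610973 at r = 0.904, a description over means that share their arrays. ILMN_2589603 ranged over 5.69, 5.79 and 5.89 in KO and 5.67, 5.80 and 5.92 in WT, ranked at percentile 3.2 of all probes, and did not cycle (adjusted p = 0.822 in KO and 0.267 in WT). Its correlation with ILMN_2610973 over the group means was -0.14.

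Npas2 encodes the relative that can stand in for CLOCK. Its single probe was dim, at the 46.8th percentile of all probes, where the median of all probe means was 5.99. The lowest, median and highest values were 5.71, 5.98 and 6.12 in KO and 5.83, 5.97 and 6.18 in WT. At ZT4, the WT maximum, Npas2 read 5.96, 5.98 and 6.12 in KO and 6.05, 6.09 and 6.13 in WT. At ZT12 it read 5.79, 5.88 and 5.94 in KO and 5.92, 5.94 and 5.97 in WT. The groups overlapped at all 12 times.

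The Npas2 rhythm passed in WT, with an amplitude of 0.083 and an acrophase of ZT0.415 (adjusted p = 3.00e-04, F-test), and missed the threshold in KO, with an amplitude of 0.058 and an acrophase of ZT1.71 (adjusted p = 0.0843). The difference in rhythm was itself not past the threshold (limma adjusted p = 0.891), so the genotypes are not shown to differ. The WT call was lost without WT set 6 (adjusted p = 0.0581). The fit explained 23.8% of the variance in KO and 49.5% in WT. The level differed by -0.021 (limma adjusted p = 0.578).

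Nfil3 had the widest daily swing of the 5 genes. Its lowest, median and highest values were 7.58, 8.85 and 10.17 in KO and 7.46, 9.07 and 10.27 in WT. At ZT2 Nfil3 read 9.46, 9.52 and 10.03 in KO and 9.73, 9.97 and 10.27 in WT. At ZT10 it read 7.67, 7.77 and 7.96 in KO and 7.46, 7.56 and 7.59 in WT. KO thus spanned less between the extremes than WT, 3.87-fold between its highest and lowest group mean (ZT2 and ZT8) against 5.48-fold in WT (ZT2 and ZT10), although the fitted amplitudes were close, 0.88 in KO and 0.92 in WT.

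In the dark phase the Nfil3 mean was lower in KO at each time, with overlapping values at ZT14, ZT16 and ZT22. At ZT18 it read 8.55, 8.71 and 9.06 in KO and 9.23, 9.24 and 9.29 in WT, and at ZT20 8.99, 9.11 and 9.13 in KO and 9.38, 9.49 and 9.55 in WT. At ZT18, ZT20 and ZT12 the KO values all lay under the WT values, whereas at ZT10 they all lay above. Of all probe and time pairs, 6.3% had KO below in this way, and the share with KO above was not computed. The mean was lower in KO at 10 of 12 times. At ZT12 the values were 7.78, 7.86 and 8.16 in KO and 8.23, 8.26 and 9.57 in WT, and the highest WT value came from the WT set 6 array with the high S100a8 and S100a9 signals. The difference of -0.75 at that time was the largest and did not pass (limma adjusted p = 0.253), and without that array it was -0.31 (limma adjusted p = 0.827).

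The Nfil3 rhythm passed in both genotypes (adjusted p = 1.25e-06 in KO and 4.16e-07 in WT, F-test), with an acrophase of ZT23.6 (SE 0.468 h) in KO and ZT22.9 (SE 0.447 h) in WT. Its level difference was -0.23 (SE 0.10, 95% interval -0.44 to -0.025) and missed the threshold (limma adjusted p = 0.163). Without KO set 6 it was -0.33 and passed (adjusted p = 0.0260), and leaving out only the ZT6 array of that set gave -0.28 (adjusted p = 0.0477). With the WT set 6 array at ZT12 left out as well it was -0.23 and missed again (adjusted p = 0.0733). Set means of Nfil3 were 8.52, 8.65 and 8.88 in KO sets 4, 5 and 6 and 8.93, 8.90 and 8.92 in WT sets 6, 9 and 10. Every KO set lay below every WT set, KO set 6 only just. How many of all probes have set means apart in this way was not computed.

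Rora encodes RORα, the activator at the ROR element. Its lowest, median and highest values were 7.33, 7.64 and 7.92 in KO and 7.37, 7.88 and 8.35 in WT. At ZT20 Rora read 7.64, 7.67 and 7.72 in KO and 8.03, 8.06 and 8.35 in WT, the widest separation. At ZT12 it read 7.69, 7.82 and 7.87 in KO and 7.75, 7.79 and 7.90 in WT, the narrowest. The KO mean was the lower at 12 of 12 times, and at 8 of them all 3 KO values lay under all 3 WT values, a pattern that 6.3% of all probe and time pairs showed.

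The daily mean of Rora was 7.61 in KO and 7.89 in WT, a difference of -0.28 (SE 0.040, 95% interval -0.35 to -0.20, limma adjusted p = 6.82e-08). The median difference of all probes was -9.29e-05. Set means were 7.62, 7.63 and 7.59 in KO sets 4, 5 and 6 and 8.001, 7.78 and 7.88 in WT sets 6, 9 and 10, with no overlap. How many of all probes have set means without overlap was not computed. Over the 20 alternative settings the difference ran from -0.33 to -0.22 and passed in all 20. With 3 arrays a side no single time passed, although 7 of 12 had an unadjusted limma p under 0.05, and the smallest adjusted p was 0.0702 at ZT20. No 24 h rhythm was called for Rora (adjusted p = 0.932 in KO and 0.332 in WT, F-test), and its fitted amplitudes were 0.024 in KO and 0.10 in WT.

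**Figure D3:**
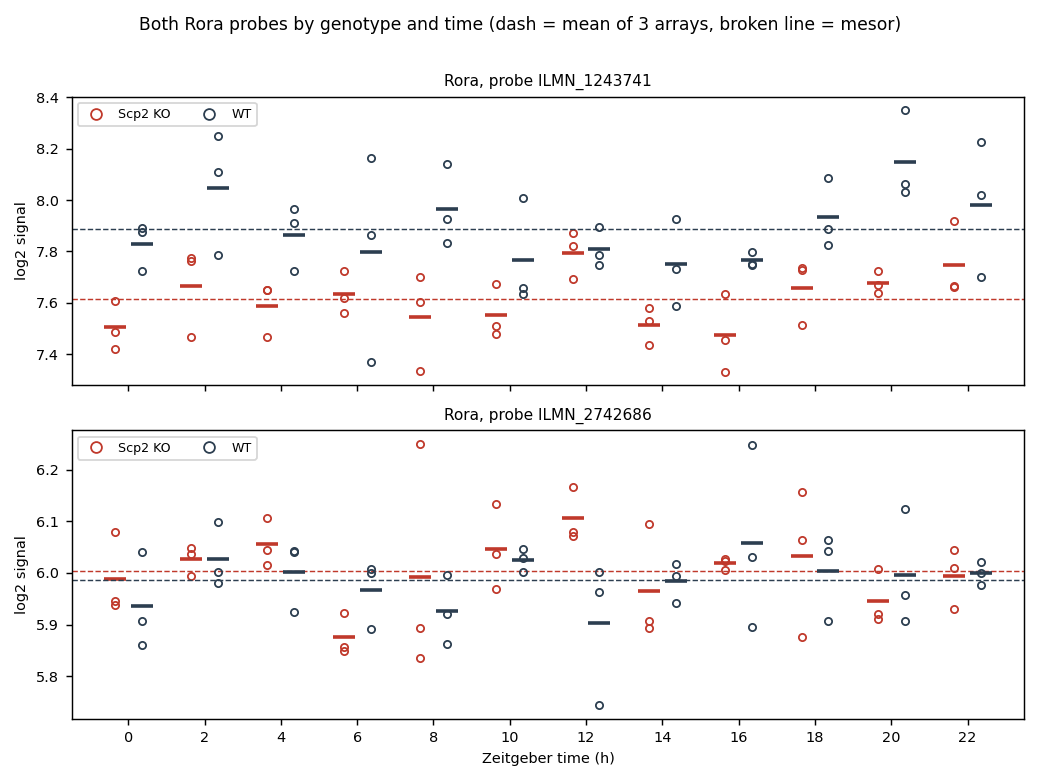
Normalized log2 signal of the 2 Rora probes against Zeitgeber time in hours, KO and WT, with a point per array, a dash for the mean of 3 arrays and a broken line for the daily mean. For ILMN_1243741 the KO points lay mostly below the WT points, with a level difference of -0.28, and for ILMN_2742686 they overlapped, with a difference of 0.018.

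The second Rora probe did not show the difference. ILMN_2742686 had lowest, median and highest values of 5.84, 6.01 and 6.25 in KO and 5.74, 5.999 and 6.25 in WT, and a level difference of 0.018 (95% interval -0.026 to 0.063, limma adjusted p = 0.762). The intervals of the probes did not meet, but ILMN_2742686 was dim, with a median raw signal of 102.6 in KO and 103 in WT. Whether it could show a difference of -0.28 was not tested. ILMN_2742686 ranked at the 51.8th percentile of all probes and ILMN_1243741 at the 87.8th, and over the 24 group means they correlated at r = -0.056. The Rora result thus rests on 1 of its 2 probes, and which transcripts each reads was not tested.

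Some markers of liver cell types also differed in level between the genotypes, where 12.6% of all probes differed and 6.46% were lower in KO. Of 5 sinusoidal endothelial markers 3 were lower in KO by the level test, Clec4g (-0.19), Oit3 (-0.22) and Gpr182 (-0.11), and their summed signal had a log2 range of 11 to 11.45 in KO and 11.15 to 11.97 in WT. Of 5 stellate markers Reln (-0.086) and Ecm1 (-0.19) were lower, with a summed log2 range of 11.37 to 11.91 in KO and 11.59 to 12.18 in WT. Of 7 hepatocyte markers Cps1 (-0.29) and Alb (-0.068) were lower, with a sum of 15.74 to 16.15 in KO and 15.90 to 16.17 in WT. The median sum of the hepatocyte markers was 16.08 in KO and 16.08 in WT. It was 11.22 in KO and 11.4 in WT for the endothelial markers, and 11.68 in KO and 11.75 in WT for the stellate markers. None of 5 Kupffer markers (9.06 to 10.26 in KO and 9.02 to 11.20 in WT), of 3 measured of 5 cholangiocyte markers (7.41 to 7.65 in KO and 7.45 to 7.74 in WT) or of 6 leukocyte markers (8.46 to 8.85 in KO and 8.497 to 12.25 in WT) differed past the threshold. Their part in the Rora difference was not tested.

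**Figure D4:**
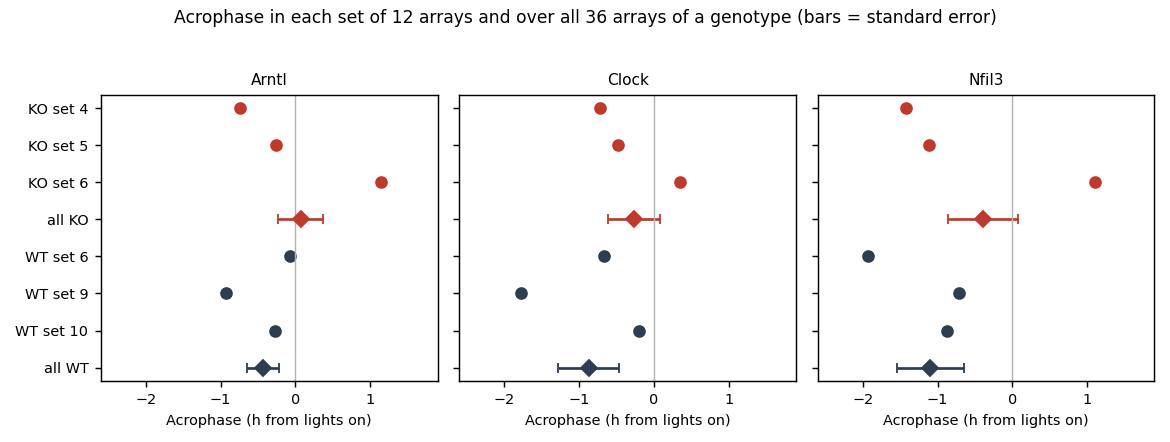
Acrophase, in hours from lights on, of Arntl, Clock and Nfil3 in each of the 3 KO sets and the 3 WT sets, from a 24 h cosine fitted to the 12 arrays of a set, with diamonds and standard errors for all 36 arrays of a genotype. KO set 6 was the latest of the 6 sets for all 3 genes, at ZT1.15 for Arntl, ZT0.344 for Clock and ZT1.11 for Nfil3.

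The fitted maxima of the 3 cycling genes came later in KO, by 30.3 min for Arntl (95% interval -14.2 to 74.9), 36.4 min for Clock (-27.2 to 100.02) and 42.5 min for Nfil3 (-35.0 to 120.0). Each interval includes 0. Amplitude differed by -0.039 for Arntl (95% interval -0.16 to 0.083), -0.0092 for Clock (-0.14 to 0.13) and -0.034 for Nfil3 (-0.34 to 0.27). Among the 1967 probes that cycled in both genotypes the median delay was 34.9 min, with 68.8% later in KO, and among the 366 of them with a WT maximum within 2 h of ZT22 it was 49.4 min, with 78.4% later. The 3 genes thus lay close to the median of all cycling probes.

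These delays depended on which sets were included. Arntl had its maximum at ZT23.3, ZT23.7 and ZT1.15 in KO sets 4, 5 and 6 and at ZT23.9, ZT23.1 and ZT23.7 in WT sets 6, 9 and 10. Clock had its maximum at ZT23.3, ZT23.5 and ZT0.344 in the KO sets and at ZT23.3, ZT22.2 and ZT23.8 in the WT sets. For Nfil3 the values were ZT22.6, ZT22.9 and ZT1.11 in the KO sets and ZT22.1, ZT23.3 and ZT23.1 in the WT sets. KO sets 4 and 5 lay within the WT range for each gene and KO set 6 lay after it.

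Without KO set 6 the delay was -3.38 min for Arntl, 17.1 min for Clock and -9.26 min for Nfil3. When KO set 4 was left out, it was 52.8 min for Arntl, 48.2 min for Clock and 67.7 min for Nfil3. Leaving out the ZT6 array of KO set 6 alone gave 13.96 min for Arntl, 29.0 min for Clock and 20.7 min for Nfil3. Among WT sets the early Clock maximum of set 9 mattered most for that gene: with WT set 9 left out, the delay was 14.8 min for Arntl, 11.5 min for Clock and 54.6 min for Nfil3. Over the 1967 cycling probes the median delay was 19.6 min when KO set 6 was dropped, with 60.8% still later in KO, 37.4 min when KO set 5 was and 50.2 min when KO set 4 was. Arntl and Nfil3 thus changed sign without KO set 6, whereas the median of the cycling probes did not.

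**Figure D5:**
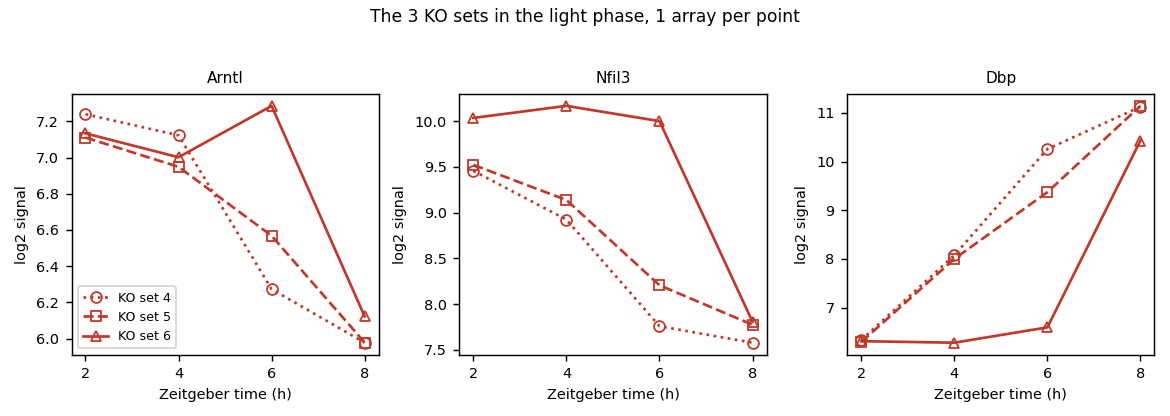
Normalized log2 signal of Arntl, Nfil3 and Dbp in KO sets 4, 5 and 6, each as its own line, from ZT2 to ZT8 (Zeitgeber time in hours). At ZT6 set 6 stood at 7.29 for Arntl and 9.999 for Nfil3, above both other sets, and at 6.59 for Dbp, below both.

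For Arntl and Nfil3 the widest spread between the KO sets fell at ZT6, with an SD of 0.52 for Arntl and 1.19 for Nfil3. There Arntl read 7.29 in KO set 6 and 6.27 and 6.57 in KO sets 4 and 5, and Nfil3 read 9.999 in KO set 6 and 7.76 and 8.21 in KO sets 4 and 5. Clock was closer, 8.38 in KO set 6 and 8.25 and 8.17 in KO sets 4 and 5. KO set 6 stood apart at other times as well, with Nfil3 at 10.17 in KO set 6 at ZT4 and 8.92 and 9.14 in KO sets 4 and 5, and Dbp at 6.28 there against 8.08 and 8. In the dark phase, at ZT16, Arntl was 5.98 in KO set 6 and 6.34 and 6.59 in KO sets 4 and 5. That KO set 6 array had the lowest median raw signal of all arrays, 95.5, and a low median rank correlation with them, 0.831. Genes that peak at other hours were late in the same set, Dbp at ZT12.5 against ZT10.7 and ZT11.1 in KO sets 4 and 5, and Nr1d1 at ZT9.10 against ZT7.85 and ZT7.57. In the 3 WT sets Dbp lay between ZT10.9 and ZT11.2.

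Within a genotype the maxima followed each other closely. In KO the maximum of Clock differed from that of Arntl by -0.34 h (95% interval -1.16 to 0.48) and that of Nfil3 by -0.46 h (-1.19 to 0.27). In WT the differences from Arntl were -0.44 h for Clock (-1.21 to 0.33) and -0.66 h for Nfil3 (-1.50 to 0.18). Of the 4 genes with a WT rhythm, the pair of Npas2 and Nfil3 alone had an interval that left out 0, with Nfil3 at -1.51 h from Npas2 (-2.95 to -0.078). In both genotypes the fitted maxima ran in the order Nfil3, Clock, Arntl, Npas2, the Npas2 rhythm being uncalled in KO, and neighbours in that order were not separated beyond their errors.

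Ordering the 12 group means of a gene by level, neighbours were further apart than the pooled SD of the groups in 2 of 11 steps in KO and 3 of 11 in WT for Arntl, and in 2 and 2 for Clock. The counts were 1 in KO and 3 in WT for Nfil3, 0 and 1 for Npas2, and 0 and 0 for Rora. Most neighbours in level were thus not separated beyond that SD. Neighbours in level were not always neighbours in time, as with ZT8 and ZT14 for Clock in WT.

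Over the 24 group means Arntl correlated with Nfil3 at r = 0.929, with Clock at 0.927 and with Npas2 at 0.805. Rora correlated with the other 4 at 0.070 to 0.35. These means share their arrays and the values are descriptions. The means hold both genotypes, so a shared difference between KO and WT enters a correlation as well as a shared daily course. For Rora, with a level difference and no called rhythm, these were not separated. Among all named genes, the 3 most like Arntl were Tubb2b (r = 0.97), Leo1 (0.96) and Slc30a10 (0.958), and those most like Clock were Ddc (0.972), Lrfn3 (0.959) and Pnkd (0.95). For Nfil3 the first was Arntl itself, then Dnmt3b (0.925) and Nedd4l (0.906). Npas2 was matched most closely by Grk5 (0.849), Nelfa (0.840) and Rfxank (0.828), and Rora by Slc6a6 (0.853), Tmem254a (0.844) and Hsd11b1 (0.842). Dbp was the gene most opposed to Arntl (r = -0.976) and to Nfil3 (r = -0.944).

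The genes around these 5 were examined through lists, 1 probe per gene. Of 15 E-box targets and repressors, all measured, 10 cycled in both genotypes, with a median delay of 14.1 min, and 0 differed in level. The widest swings belonged to Dbp (amplitude 2.48 in KO and 2.52 in WT), the deubiquitinase gene Usp2 (1.52 in KO and 1.67 in WT) and the repressor gene Per2 (1.18 in KO and 1.26 in WT). Dbp, whose product competes with NFIL3 for D-boxes, had its maximum at ZT11.4 in KO and ZT11.0 in WT, nearly opposite Nfil3.

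Of 9 genes for ROR and REV-ERB receptors and their corepressors, 6 were measured and 2 cycled in both genotypes. Nr1d1 (REV-ERBα) had its maximum at ZT8.09 in KO and ZT7.36 in WT, and Nr1d2 (REV-ERBβ) at ZT10.7 in KO and ZT10.3 in WT, the hours in which Arntl, Clock and Nfil3 approached their floor. Hdac3, the deacetylase recruited by the corepressors, passed in WT (adjusted p = 0.00310, F-test) and not in KO (0.714), with no difference in rhythm past the threshold (limma adjusted p = 0.931). None of the 6 differed in level, so that Rora was the 1 receptor gene measured with a lower level in KO. Of the other ROR relatives only Rorb was measured (level difference 0.0018, limma adjusted p = 0.979).

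Of 8 other genes known as targets of the ROR element or of REV-ERB, 6 were measured and 2 cycled in both genotypes. Elovl3, a fatty acid elongase, was higher in KO by 0.48 (limma adjusted p = 2.93e-07), with a maximum at ZT0.746 in KO and ZT1.21 in WT and an amplitude of 1.15 in KO and 1.28 in WT. Insig2, which holds back the SREBP precursors, did not differ in level (difference 0.0021, limma adjusted p = 0.995) and had its maximum at ZT1.59 in KO and ZT1.56 in WT. G6pc, chosen here after its values were seen, passed the rhythm test in KO (adjusted p = 0.00110) and just missed it in WT (0.0518), and its rhythm difference did not pass (limma adjusted p = 0.892). Elovl3 and Rora thus moved in opposite directions.

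Of 11 relatives of CLOCK and BMAL1 in the same protein family, all measured, 0 differed in level and 0 cycled in WT. Arnt, also chosen after its values were seen, passed the rhythm test in KO (adjusted p = 0.00668, F-test), and its rhythm difference did not pass (limma adjusted p = 0.384). Arntl2, the closest relative of Arntl, did not cycle (adjusted p = 0.760 in KO and 0.982 in WT). Of 12 genes for enzymes that modify BMAL1, CLOCK and their repressors, 10 were measured. Btrc, for a ubiquitin ligase subunit, and Kat2b cycled in both genotypes, with amplitudes for Btrc of 0.13 in KO and 0.14 in WT and for Kat2b of 0.085 in KO and 0.12 in WT. The kinase gene Csnk1d passed the rhythm test in WT (adjusted p = 0.00941, F-test) and not in KO (0.255), and its rhythm difference did not pass (limma adjusted p = 0.475). The acetyltransferase genes Ep300 (-0.13, limma adjusted p = 0.00823) and Kat2b (-0.080, limma adjusted p = 0.0374) were lower in KO.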

How the data were processed

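Total liver RNA was biotin-labelled and hybridised to Illumina BeadChips, 72 arrays in 24 groups of 3 (2 genotypes, 12 times). The authors deposited a table of intensity values, not normalized, and a table of normalized log2 values, for which the labels name Partek. The intensity values were background-corrected with normexp (offset 50), quantile-normalized and put on the log2 scale in limma 3.58.1 (R 4.3.3). Intensity columns name genotype, time and set, so groups came from them and replicate numbers did not. Harmonic models of 24 h were fitted to all 25697 probes. Level and rhythm differences used limma, rhythms within a genotype the ordinary F-test, with Benjamini-Hochberg adjustment over all probes. Amplitude, acrophase and delay errors came from the delta method. The fits were tested on simulated data. The array number limits the precision, and p-values measure the spread between single animals.

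The members and gene lists were chosen with earlier results of these data known. Every member probe is described. Of other lists at most 3 genes were named, those with the largest WT amplitude among genes cycling in WT, plus the 3 genes most correlated with each member. Genes named outside that rule, chosen after their values were seen, were Ep300, Rorb, Arntl2, Arnt, G6pc, those opposed to members, the clock genes given by set, and the cell type markers that differed in level or marked an array. Of 25697 probes, 23978 had 1 gene name and 1719 had none. Alternatives were other background corrections, scalings, tests, thresholds and left-out sets. No source used here gives slide positions.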

Additional observations from a re-analysis of the deposited data

How the results depend on the processing

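The lower level of Rora in KO passed under 20 of 20 alternatives, with adjusted p between 1.86e-09 and 4.71e-05. The rhythms of Arntl, Clock and Nfil3 passed in both genotypes under every alternative run, and no rhythm difference of the 5 genes passed under any. Over the fits without 1 set each, the level difference of Nfil3 ran from -0.33 to -0.15, that of Clock from 0.034 to 0.16, and the adjusted p of the Npas2 rhythm in WT from 7.43e-04 to 0.0581. The calls gained or lost without a set are those named above with their set. Without the KO set 6 array at ZT6, an alternative chosen after seeing the data, the Nfil3 level passed with a difference of -0.28. At a threshold of 0.1 the Npas2 rhythm in KO passed (adjusted p = 0.0843). Fewer arrays, and a looser threshold, are the construction of these settings; beyond that the cause was not tested.

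The 12 h component of Clock in WT missed the threshold under median scaling (adjusted p = 0.277). Median scaling also gave delays of 18.2 min for Arntl, 8.73 min for Clock and 29.3 min for Nfil3. The rhythm of the Clock probe ILMN_2600964 missed it in KO without KO set 4 (0.0554) and on means of 3 animals (0.0577), and in WT without WT set 6 (0.0590) or WT set 9 (0.0967). Over all probes, the count of rhythm differences, 28, ran from 4 to 54 over settings at the same threshold, that of KO rhythms, 2932, from 945 to 3191, and that of WT rhythms, 3432, from 1941 to 3743. Calls at single times, 2206, fell to 805 under median scaling. The 12 h counts ran from 52 to 151 in KO and from 59 to 226 in WT.

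Replicate numbers stand only in the normalized log2 table. With the number as a replicate block the Rora difference was -0.23 (adjusted p = 3.27e-08, against 8.70e-08 without the block). Deviations of the 36 same-numbered KO and WT pairs correlated at -0.11 to 0.34, with a median of 0.13 and 23 of 36 over 0.1. What same-numbered arrays share is not given and was not tested, and the main fits did not pair them. Npas2, ILMN_2742686 of Rora and ILMN_2589603 of Clock were the dimmest member probes, and how far above background they lay was not tested.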
